A study of Mus musculus with 34 samples.

Results

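Lungs of mouse embryos with Lin28A in mesenchymal cells were compared with control lungs at E18.5, an embryonic stage shortly before birth. The comparison holds 2 mesenchymal libraries and 5 control libraries, 7 of the 34 libraries of the series, and it covers every gene in the count table. Its libraries are the E18.5 samples whose labels place Lin28A expression in mesenchymal cells, with the tag Wt1 in their titles, and the E18.5 samples labelled as controls. All groups, controls included, come from pregnant females given doxycycline at 1 g/L in drinking water from E0.5. Alleles, strain, driver line, the meaning of the tags and the sex of the embryos are not described in the labels. The nearest groups in the series are 5 E18.5 lungs with global Lin28A (tag Vasa) and 3 E18.5 lungs with Lin28A in epithelial cells (tag Nkx2.1), and both are used below only to show where mesenchymal lungs differ. Embryonic lungs were extracted with Trizol and sequenced by a poly(A) method, and counts of whole lungs do not show which cells carried a transcript. The labels do not say that replicates came from separate litters, so each p-value rests on the spread between samples within groups, which may in part be technical. That spread was estimated over the groups of all 34 libraries, not from these 7 alone.

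Lin28A is an RNA-binding protein of early embryonic cells that binds precursors of the let-7 microRNAs and blocks their maturation. Mature let-7 pairs through its seed, the bases near its 5′ end, with sites in the 3′ untranslated regions (3′ UTRs) of growth-related mRNAs and lowers them, and it becomes abundant as tissues mature. Wt1 is a transcription factor of the mesothelium, the outer cell layer of the lung, and in the mouse the mesothelium contributes cells to the lung mesenchyme. In the last days before birth the mouse lung thins its mesenchyme, lays down elastic fibres and forms alveolar type 1 and type 2 cells.

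The let-7 family is shown because Lin28A acts on it, and because all of its members share the letters with which they find their targets. RefSeq (GRCm38.p6) listed 11 mouse genes of the family with 9 mature names and 9 distinct mature sequences, all with 1 seed, printed in capitals (bases 2 to 8). MicroRNAs themselves were not measured by this assay.
let-7a-5p: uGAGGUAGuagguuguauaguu
let-7b-5p: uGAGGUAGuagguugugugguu
let-7c-5p: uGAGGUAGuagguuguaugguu
let-7d-5p: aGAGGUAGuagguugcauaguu
let-7e-5p: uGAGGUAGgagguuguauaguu
let-7f-5p: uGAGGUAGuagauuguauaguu
let-7g-5p: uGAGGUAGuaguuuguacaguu
let-7i-5p: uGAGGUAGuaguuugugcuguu
miR-98-5p: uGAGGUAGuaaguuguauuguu

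An 8-base site for this seed reads CTACCTCA in the DNA of a 3′ UTR. The first such site of 4 let-7 target genes that were higher in mesenchymal lungs is given with its neighbouring bases and its position in GRCm38, with the site in capitals. Hmga2 holds 1 site of this kind (chr10:120364222-120364245, minus strand), Igf2bp1 holds 3 (first at chr11:95961776-95961799, minus strand), Igdcc3 holds 2 (first at chr9:65185708-65185731, plus strand) and Trim71 holds 4 (first at chr9:114512470-114512493, minus strand). A match is a description of the letters and does not show that the site was used in these lungs.
Hmga2: ccgacattcaatttCTACCTCAgc
Igf2bp1: ctgtgcgaagtaaaCTACCTCAag
Igdcc3: gtgactctcagcacCTACCTCAgc
Trim71: acattgcctaagtcCTACCTCAgc

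Depth was 12749264 and 12194963 counts in the mesenchymal libraries and 7147301 to 13590762 in the controls, and levels are given as CPM, counts scaled to a common library total with TMM factors. Several libraries stood apart before any comparison. Control libraries 1 and 2 were high in immediate early genes, which respond within minutes to handling and other stimuli: Fos had 4.62 and 3.89 CPM in mesenchymal libraries, against 1221, 1687, 22.6, 30.1 and 15.97 CPM in control libraries 1 to 5. The same 2 controls were highest in CT010467.1, which the annotation calls a ribosomal RNA, with 1128 and 1373 CPM in mesenchymal libraries and 61428, 24415, 863, 1127 and 9383 CPM in controls. Among controls, library 3 stood out for the heart atrium gene Nppa (106.7 CPM) and library 1 for the liver gene Alb (588 CPM). Controls 4 and 5 had more RNA of dividing cells than controls 1 to 3, with 291 and 309 CPM of Mki67 against 143.5 to 169. Mesenchymal library 1 carried Xist and library 2 carried Y-linked transcripts, while 1 control of 5 carried Y-linked transcripts, so sex was not balanced between the groups. Main counts below are also given without control libraries 1 and 2, a setting chosen after the data were seen. List counts are given or said to change where they moved over 1.5 times there, without mesenchymal library 1 or 2, or without control 2.

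The targeted gene was high in libraries labelled with Lin28A, and whole-lung counts do not show in which cells. Lin28a (ENSMUSG00000050966, chromosome 4, 134003330 to 134018841) had 412 and 550.4 CPM in mesenchymal lungs, against 0.481, 0.361, 0.715, 1.79 and 2.88 CPM in control lungs. The log2 fold was 8.42 ± 0.47 (SE, as for every log2 fold below; edgeR adjusted p = 1.98e-13), and reads of a transgene and of the endogenous gene are counted together. Levels in the other transgenic lungs were 448 to 744 CPM with global and 625 to 1301 CPM with epithelial Lin28A. Its relative Lin28b, itself a let-7 target, had 1.19 and 1.399 CPM in mesenchymal lungs, against 0.481, 0.361, 0.238, 0.624 and 0.5298 CPM in controls (log2 fold 1.504 ± 0.56, adjusted p = 0.0233). That call ended without mesenchymal library 1 (log2 fold 1.614, adjusted p = 0.0586), without mesenchymal library 2 (1.387, adjusted p = 0.133), without control 3 (1.32, adjusted p = 0.0566) and without controls 1 and 2 (1.44, adjusted p = 0.0609).

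Markers showed lung in both groups. Nkx2-1, the lung epithelial transcription factor, had 617 and 456 CPM in mesenchymal lungs, against 667, 633, 648, 898 and 626 CPM in controls, and it was not called (log2 fold -0.37 ± 0.16, adjusted p = 0.0551). Its adjusted p passed the threshold of 0.05 in 7 alternative settings, with log2 folds from -0.398 to -0.606. Of the general mesenchymal markers, the collagen gene Col1a1 overlapped between the groups, with 1091 and 1332 CPM in mesenchymal lungs and 1402, 1567, 887, 1469 and 1145 CPM in controls. Both mesenchymal libraries held RNA of every class checked, including endothelium (Pecam1, 345 and 314 CPM) and mesothelium (Upk3b, 29.5 and 37.4 CPM). In bulk samples, fewer cells of a type and less RNA per cell cannot be told apart, and this holds for every cell type marker below.

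**Figure D1:**
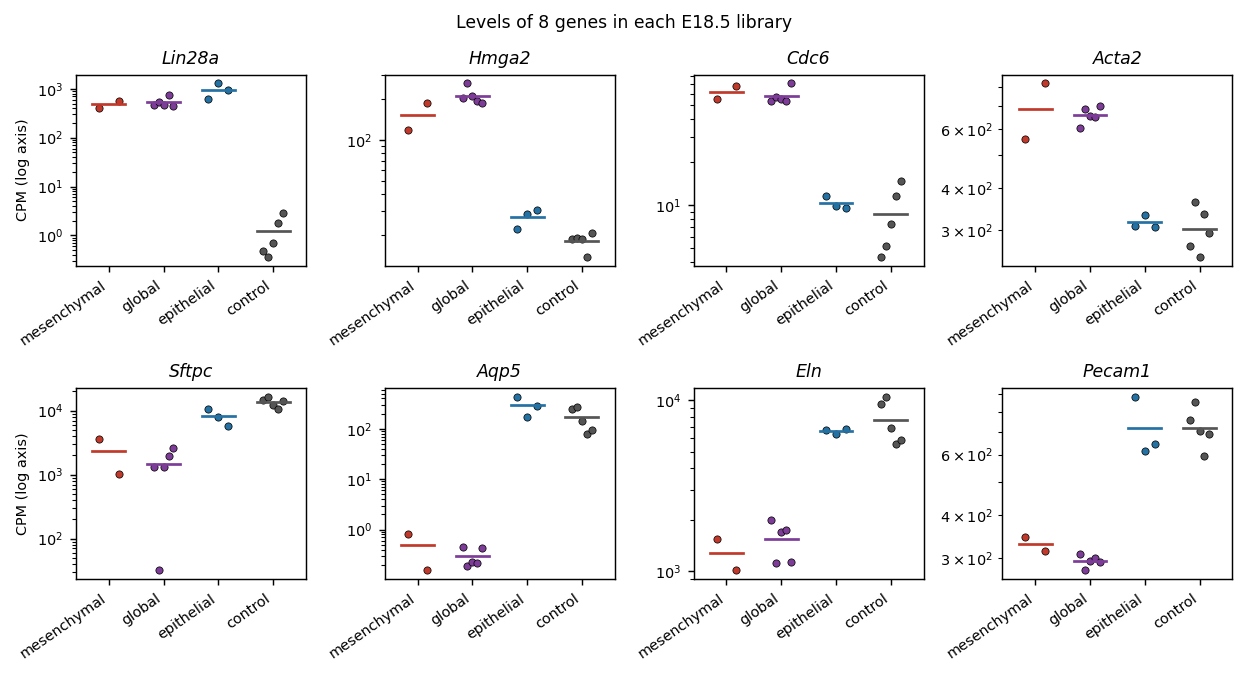
Level of 8 genes in each E18.5 library, in CPM on a log axis, for mesenchymal (n = 2), global (n = 5), epithelial (n = 3) and control (n = 5) lungs, with a bar at each group mean. Mesenchymal libraries lie beyond every control library in all 8 genes, above them for Lin28a, Hmga2, Cdc6 and Acta2 and below them for Sftpc, Aqp5, Eln and Pecam1. Of all genes tested, 29.7% lie above and 29.9% below every control in this way.

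Most genes tested differed between mesenchymal and control lungs. Of 18319 genes, 5016 were higher (27.4%) and 4936 lower (26.9%), together 9952 (54.3%, edgeR's quasi-likelihood test, adjusted p under 0.05). With at least a 2-fold difference as well, 1800 genes were higher (9.83%) and 2690 lower (14.7%), together 4490 (24.5%). The median log2 fold over all genes was -0.02, and the median size of a log2 fold, whatever its sign, was 0.582. Without mesenchymal library 2 there were 6588 calls (3505 higher and 3083 lower), of which 6530 were among the 9952. Without control libraries 1 and 2 there were 8653 (4232 higher and 4421 lower), of which 8431 were among them. Both mesenchymal libraries lay above all 5 controls in 29.7% of genes and below all 5 in 29.9%. The percentages above are the background against which counts of list members are to be read.

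The profile of mesenchymal lungs lay close to that of lungs with global Lin28A and far from that of lungs with epithelial Lin28A. Only 4 genes (0.0218%) differed between mesenchymal and global lungs by the same test, with 830 at an unadjusted p under 0.05 and 11 by DESeq2. Between mesenchymal and epithelial lungs 9771 genes differed (53.3%), 4918 higher (26.8%) and 4853 lower (26.5%) in mesenchymal lungs. The median size of a log2 fold was 0.136 against global and 0.636 against epithelial lungs. Across genes, the log2 levels of the 2 mesenchymal libraries had a Pearson r of 0.983 with each other, of 0.972 to 0.986 with global libraries, of 0.903 to 0.946 with epithelial libraries and of 0.887 to 0.958 with controls, where genes are not independent replicates. A gene that misses the threshold between mesenchymal and global lungs is not shown to be equal in them, and the intervals below give how far they could differ.

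**Figure D2:**
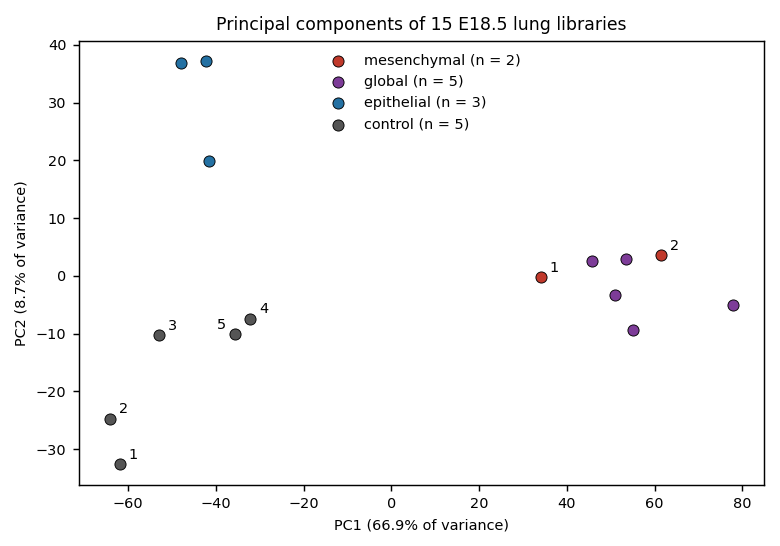
First 2 principal components of the 15 E18.5 libraries, from the 2000 most variable genes on the log2 CPM scale, with replicate numbers beside mesenchymal and control libraries. On component 1 (66.9% of the variance) the mesenchymal libraries lie at 34.04 and 61.53, global libraries at 45.82 to 77.9, epithelial libraries at -47.95 to -41.58 and controls at -64.08 to -32.23.

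**Figure D3:**
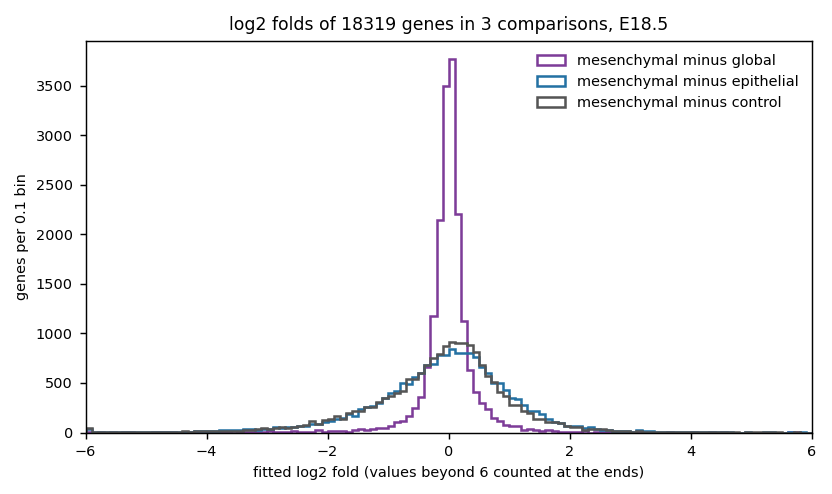
Number of genes per 0.1 of log2 fold for mesenchymal lungs minus global, epithelial and control lungs at E18.5 (18319 genes, values beyond 6 counted at the ends). The histogram against global lungs is narrow around 0, and those against epithelial and control lungs are wide.

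Most known let-7 targets on the list were higher. Of 48 let-7 target genes tested, 33 were higher and 7 lower in mesenchymal lungs (29 and 7 without controls 1 and 2), and their median log2 fold was 0.81. The share of higher genes over all genes was 27.4%, and the summed level of the list was 5485 and 6085 CPM in mesenchymal lungs, against 3336 to 3767 CPM in controls. Hmga2 (ENSMUSG00000056758, chromosome 10, 120361275 to 120476469), an architectural protein of chromatin in embryonic tissue, had 117 and 188 CPM in mesenchymal lungs, against 18.6, 19.2, 18.8, 13.8 and 20.9 CPM in controls. Mesenchymal and control values did not overlap, with a log2 fold of 3.07 ± 0.17 (adjusted p = 1.98e-13). Igdcc3, an immunoglobulin-family membrane protein, had 17.4 and 13.3 CPM in mesenchymal lungs, against 1.605, 0.964, 1.59, 2.89 and 2.19 CPM in controls (log2 fold 2.99 ± 0.24, adjusted p = 5.90e-11). Mycn, a transcription factor that drives growth of the distal lung epithelium in mice, had 69.4 and 72.4 CPM in mesenchymal lungs, against 11.2, 9.9997, 11.4, 16.45 and 15.4 CPM in controls (log2 fold 2.44 ± 0.21, adjusted p = 1.51e-10). Igf2bp1, an RNA-binding protein that protects its mRNA targets from decay, had 115 and 148 CPM in mesenchymal lungs, against 35.8, 32.4, 30.2, 40.6 and 40.5 CPM in controls (log2 fold 1.87 ± 0.17, adjusted p = 4.50e-10). Each of these 4 genes was higher in both mesenchymal libraries than in every control, as were 29.7% of all genes tested. E16.5 control lungs, from another stage and shown for their level only, had 29.3 to 39.9 CPM of Hmga2 and 54.9 to 58.9 CPM of Igf2bp1.

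Further members of the list were higher, uncalled or lower, and apart from Sall4 they were picked after their values were seen. Trim71, an RNA-binding ubiquitin ligase of early embryos, had 16.6 and 25.3 CPM in mesenchymal lungs, against 4.81, 4.22, 4.05, 7.49 and 5.52 CPM in controls, and Sall4, a zinc-finger gene of embryonic stem cells, had 3.73 and 5.98 CPM, against 0 in 4 of 5 controls. Fignl2, a relative of microtubule-severing enzymes, holds 3 sites of the 8-base kind and still overlapped, with 21.3 and 20.3 CPM in mesenchymal lungs and 20.7, 20.1, 20.4, 22.5 and 17.2 CPM in controls. Nr6a1, an orphan nuclear receptor with 3 such sites, also overlapped, with 7.01 and 9.71 CPM in mesenchymal lungs and 8.35, 6.99, 8.66, 7.25 and 8.098 CPM in controls. Among the 7 lower members were the death receptor gene Fas (4.92 and 3.19 CPM in mesenchymal lungs, 19.1, 26.9, 15.3, 13.02 and 23.4 CPM in controls) and the insulin receptor substrate Irs2 (32.6 and 25.9 CPM in mesenchymal lungs, 65.2, 86.6, 58.8, 65.6 and 47.9 CPM in controls).

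The sequence match was also counted in all genes. Among the 33 higher list members, 18 had an 8-base site in the annotated 3′ UTR, 10 had only a 7-base match (CTACCTC or TACCTCA) and 5 had neither. The 7 lower members divided into 5, 1 and 1, and the 8 uncalled members into 6, 2 and 0. Over all genes with an annotated 3′ UTR, 642 had an 8-base site, and 32.4% of them were higher and 26.2% lower in mesenchymal lungs, with a median log2 fold of 0.01. The 2128 genes with only a 7-base match were higher in 33.2% and lower in 29.5% (median 0.02), and the 12396 genes with neither were higher in 3658 cases and lower in 3714 (29.5% higher, median -0.03). The 3 classes differ in the length of their 3′ UTRs, with medians of 2563, 2435 and 1093 bases.

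Genes of DNA replication and of cell division were higher without exception on both lists. All 20 S phase genes and all 20 mitosis genes tested were higher in mesenchymal lungs, each by at least 2-fold, against 9.83% of all genes that were higher by that much. Median log2 folds were 1.96 and 1.65. Cdc6 (chromosome 11, 98907801 to 98923940), which loads the replicative helicase onto DNA, had 55.04 and 67.6 CPM in mesenchymal lungs, against 4.33, 5.18, 7.39, 11.6 and 14.8 CPM in controls (log2 fold 2.76 ± 0.22, adjusted p = 7.78e-11). Controls 4 and 5 held the highest control values of Cdc6, and both mesenchymal libraries were above them. The helicase subunit Mcm3 had 213 and 242 CPM in mesenchymal lungs, against 41.1, 37.95, 46.97, 77.9 and 79.5 CPM in controls (log2 fold 1.99 ± 0.17, adjusted p = 1.77e-10). Uhrf1, which keeps DNA methylation through replication, had 162 and 176 CPM in mesenchymal lungs, against 21.02, 16.7, 23.05, 45.8 and 49.95 CPM in controls (log2 fold 2.41 ± 0.22, adjusted p = 4.06e-10). Gins2 (log2 fold 2.49 ± 0.24) and Gins1 (2.28 ± 0.17), subunits of the replication complex, rose with them. Among mitosis genes, the proliferation marker Mki67 had 623 and 599.9 CPM in mesenchymal lungs, against 169, 143, 169, 291 and 309 CPM in controls (log2 fold 1.497 ± 0.20, adjusted p = 3.21e-07). Top2a, a topoisomerase that untangles chromosomes, rose by 1.83 ± 0.21, the spindle checkpoint kinases Bub1 by 1.98 ± 0.24 and Bub1b by 1.87 ± 0.20, and the mitotic cyclin Ccnb1 by 1.903 ± 0.19 on the log2 scale. E16.5 control lungs held 456 to 600.4 CPM of Mki67 and 27.8 to 43.5 CPM of Cdc6. All 40 counts stayed as they were without mesenchymal library 1, without mesenchymal library 2 and without controls 1 and 2.

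The promoter of Cdc6 is shown because replication genes moved together and are known targets of E2F factors, which bind octamers such as TTTCCCGC. The window runs from 250 bases before to 50 after the start site in RefSeq (GRCm38.p6, chr11:98907901-98908200, plus strand), and an octamer on either strand is in capitals.
Cdc6: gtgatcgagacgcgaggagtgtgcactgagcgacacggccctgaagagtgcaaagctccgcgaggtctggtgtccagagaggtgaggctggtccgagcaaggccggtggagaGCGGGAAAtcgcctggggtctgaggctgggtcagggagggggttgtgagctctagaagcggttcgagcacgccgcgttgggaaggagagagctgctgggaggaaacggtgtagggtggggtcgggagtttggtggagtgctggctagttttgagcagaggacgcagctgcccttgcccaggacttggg

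The octamers TTTCCCGC, TTTCGCGC, TTTGCCGC and TTTGGCGC were searched on both strands of 300-base windows, and matches of different octamers may overlap. At least 1 was found in 9 of the 17 S phase genes with a promoter in the table (52.9%) and in 1 of 16 mitosis genes (6.25%). The share was 4.28% over the 12672 tested genes with a promoter and 2.6% over all 27025. Alveolar type 2 genes held it in 0 of 15 and alveolar type 1 genes in 1 of 14. These are descriptions of letters, and no binding was measured.

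Markers of mature alveolar and airway epithelium were lower. Of 20 alveolar type 2 genes, 19 were lower (median log2 fold -2.66), against 26.9% of all genes. Their summed level was 6260 and 1957 CPM in mesenchymal lungs, against 20360 to 32370 CPM in controls. Sftpc (chromosome 14, 70520949 to 70524081), the surfactant protein specific to these cells, had 3629.6 and 1017 CPM in mesenchymal lungs, against 14535, 16659, 12169.6, 10595 and 14185 CPM in controls (log2 fold -2.55 ± 0.83, adjusted p = 0.0109). Without mesenchymal library 2 that call ended (log2 fold -1.909, adjusted p = 0.167). Sftpb, needed for surfactant film formation, had 462 and 118 CPM in mesenchymal lungs, against 2782, 3254, 2662, 1819 and 2050.4 CPM in controls (log2 fold -3.11 ± 0.53, adjusted p = 1.49e-05). Sftpd, a collectin of airway defence, had 10.8 and 1.32 CPM in mesenchymal lungs, against 238, 265, 174, 66.4 and 186 CPM in controls (log2 fold -4.92 ± 0.69, adjusted p = 7.15e-07). The fatty acid desaturase Scd1 (-4.996 ± 0.52) and the complement gene Hc (-5.27 ± 0.61) fell by similar amounts on the log2 scale. In the type 2 genes mesenchymal library 1 lay between library 2 and the controls. The exception was Etv5, a transcription factor shared with distal tip cells, which was named after its values were seen and overlapped, with 191 and 172 CPM in mesenchymal lungs and 156, 135, 155, 258 and 198 CPM in controls.

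Of 16 alveolar type 1 genes, 14 were lower and 2 higher (median log2 fold -2.92), where 26.9% of all genes were lower and 27.4% higher. Aqp5 (chromosome 15, 99590782 to 99594829), the water channel of type 1 cells, had 0.8203 and 0.155 CPM in mesenchymal lungs, against 251, 270.1, 145, 80.4 and 93.3 CPM in controls. Its log2 fold of -8.38 ± 0.66 (adjusted p = 6.01e-11) was the most negative among genes named by the rule for the largest falls. Ager, a receptor that marks type 1 cells, had 198 and 58.4 CPM in mesenchymal lungs, against 2543, 2821, 1980.4, 1578 and 2109 CPM in controls (log2 fold -4.11 ± 0.42, adjusted p = 3.31e-09). Hopx, a homeodomain protein of these cells, had a log2 fold of -3.17 ± 0.40, and Spock2, a matrix proteoglycan, a log2 fold of -4.64 ± 0.46. E16.5 control lungs held 494 to 797 CPM of Ager and 5.504 to 17.8 CPM of Aqp5. The 2 higher members do other things: Igfbp2, which binds insulin-like growth factors, had 204 and 206 CPM in mesenchymal lungs, against 25.998, 20.6, 13.8, 48.6 and 51.5 CPM in controls (log2 fold 2.66 ± 0.26, adjusted p = 1.58e-09), and Sema3e, a guidance factor named after its values were seen, had 123 and 108 CPM in mesenchymal lungs, against 55.5, 62.9, 63.8, 81.3 and 84.3 CPM in controls.

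In the airway, 11 of 12 club cell genes were lower and 1 higher (median log2 fold -3.39). Scgb1a1, the main secretory protein of club cells, had 12.53 and 2.25 CPM in mesenchymal lungs, against 942, 1143, 966, 211 and 410.4 CPM in controls (log2 fold -6.62 ± 0.79, adjusted p = 1.34e-07). Scgb3a1, a related secretoglobin, had 0.224 and 0.233 CPM in mesenchymal lungs, against 50.6, 117, 40.8, 10.3 and 3.33 CPM in controls (log2 fold -7.53 ± 1.95, adjusted p = 0.00216). The monooxygenases Cyp2f2 (-4.098 ± 0.65) and Fmo2 (-4.06 ± 0.49) fell as well. The higher member, Cckar, a peptide hormone receptor named after its values were seen, had 96.1 and 127 CPM in mesenchymal lungs, against 35.1, 28.8, 58.3, 58.5 and 46.02 CPM in controls. Of 20 multiciliated cell genes, 13 were lower and 1 higher (8 and 0 without mesenchymal library 2, 0 higher without control 2 or without controls 1 and 2). Foxj1, the master regulator of motile cilia, had 43.5 and 16.1 CPM in mesenchymal lungs, against 94.4, 76.9, 87.2, 77.5 and 58.9 CPM in controls (log2 fold -1.403 ± 0.43, adjusted p = 0.0071), and without mesenchymal library 2 it was no longer called (log2 fold -0.858, adjusted p = 0.206). The axonemal dynein genes Dnah5 (-2.38 ± 0.56) and Dnah9 (-2.27 ± 0.49) fell. Of 12 neuroendocrine genes, 3 were higher and 2 lower (1 and 1 without mesenchymal library 2). The shares over all genes were 27.4% higher and 26.9% lower. Uchl1, a ubiquitin hydrolase, had 41.9 and 52.1 CPM in mesenchymal lungs, against 7.86, 7.83, 5.17, 8.42 and 8.63 CPM in controls (log2 fold 2.63 ± 0.24), while the peptide gene Calca had 0.298 and 0.466 CPM, against 3.53, 3.98, 5.801, 2.89 and 4.24 CPM in controls (log2 fold -3.396 ± 0.44).

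Genes of the distal tip, the progenitor region of the branching epithelium, did not move one way. For this list and the epithelial transcription factors below, the shares over all genes were 27.4% higher and 26.9% lower. Of 14 measured, 5 were higher and 5 lower (3 higher without mesenchymal library 2). Sox9, the transcription factor of tip cells, had 56.98 and 50.4 CPM in mesenchymal lungs, against 24.7, 34.2, 26.2, 47.9 and 23.8 CPM in controls (log2 fold 0.77 ± 0.28, adjusted p = 0.0219). That call ended without mesenchymal library 1 (adjusted p = 0.133), without mesenchymal library 2 (0.0655) and without controls 1 and 2 (0.0697). The Fgf feedback inhibitors Spry2 (log2 fold -1.35 ± 0.21) and Spry4 (-2.09 ± 0.38) fell. Spry4 had 26.5 and 19.8 CPM in mesenchymal lungs, against 104, 187, 74.5, 78.1 and 50.7 CPM in controls. Among 20 epithelial transcription factors, 6 were higher and 6 lower (2 and 4 without mesenchymal library 2). Foxa1, which opens chromatin in lung epithelium, had 103 and 106 CPM in mesenchymal lungs, against 46.4, 53.01, 61.2, 66.05 and 57.5 CPM in controls (log2 fold 0.87 ± 0.21). Cebpa, which drives maturation of type 2 cells, had 70.6 and 24.01 CPM in mesenchymal lungs, against 298, 279, 228, 218 and 199 CPM in controls (log2 fold -2.37 ± 0.31). Cebpd (-2.64 ± 0.39) and Klf5 (-1.59 ± 0.32) fell too.

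**Figure D4:**
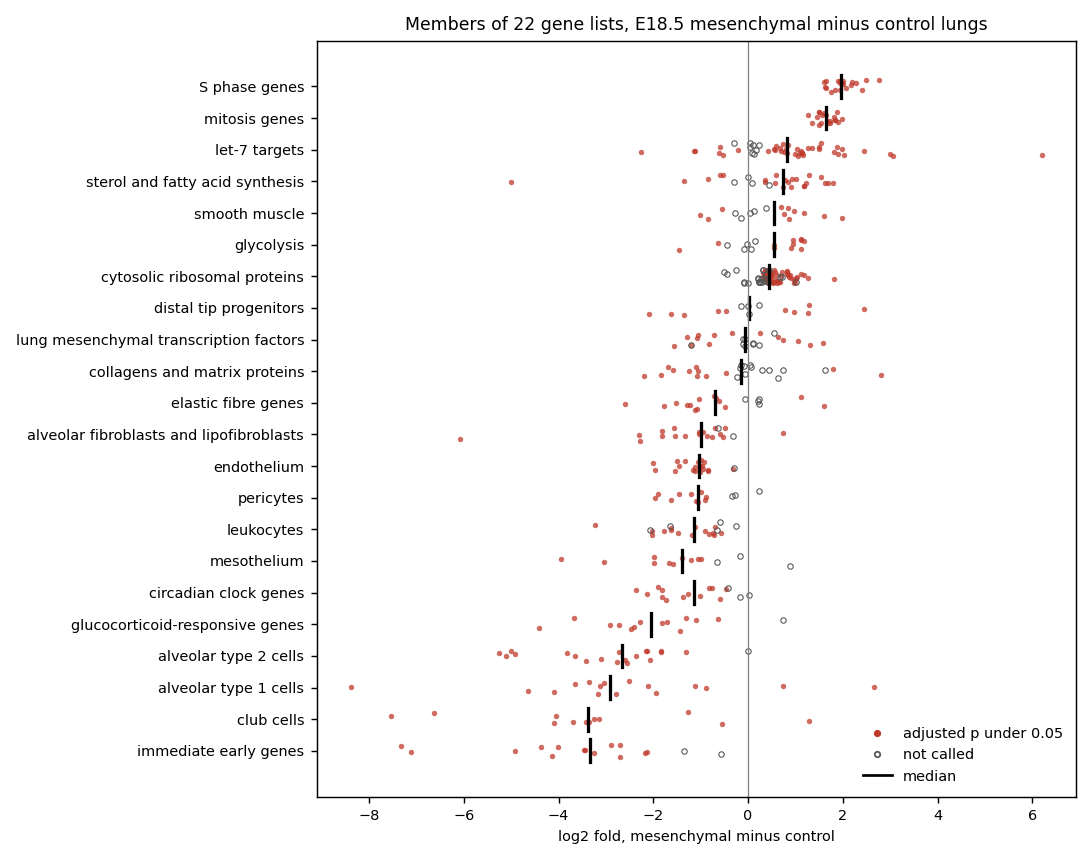
log2 fold, mesenchymal minus control lungs at E18.5, of each member of 22 gene lists, with called genes filled, uncalled genes open and the list median as a black bar. S phase and mitosis genes lie wholly right of 0, and nearly all alveolar type 2 and club cell genes lie left of it.

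Genes of the mesothelium were mostly lower, where 26.9% of all genes were lower. Wt1 (chromosome 2, 105126529 to 105173616) had 2.61 and 3.65 CPM in mesenchymal lungs, against 8.35, 5.903, 7.31, 6.004 and 8.63 CPM in controls (log2 fold -1.21 ± 0.32, adjusted p = 0.00238), and the call ended without mesenchymal library 1 (log2 fold -0.982, adjusted p = 0.0569). Of 13 mesothelial genes, 10 were lower and none higher (median log2 fold -1.39), and their summed level was 326 and 282 CPM in mesenchymal lungs, against 991 to 1646 CPM in controls. Msln, a surface protein of mesothelium, had 52.9 and 21.7 CPM in mesenchymal lungs, against 719, 771, 507, 389 and 486 CPM in controls (log2 fold -3.94 ± 0.49, adjusted p = 1.11e-07). The surface plaque gene Upk3b had 29.5 and 37.4 CPM in mesenchymal lungs, against 147, 131, 119, 92.6 and 170.3 CPM in controls (log2 fold -1.98 ± 0.29). Muc16, a membrane mucin, had a log2 fold of -3.04 ± 0.48. E16.5 control lungs held 80.4 to 131 CPM of Msln and 4.96 to 7.78 CPM of Wt1.

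Transcription factors of the lung mesenchyme moved both ways, as did all genes tested, with 27.4% higher and 26.9% lower. Of 23 tested, 6 were higher and 8 lower (2 higher without mesenchymal library 2, 3 higher without controls 1 and 2). Tcf21, a regulator of lipofibroblasts, had 193 and 155 CPM in mesenchymal lungs, against 572, 466, 484, 498 and 555 CPM in controls (log2 fold -1.57 ± 0.13, adjusted p = 6.80e-11). Foxf1, the forkhead factor of lung mesenchyme and endothelium, had 167 and 123 CPM in mesenchymal lungs, against 310.2, 365, 236, 231 and 154 CPM in controls (log2 fold -0.84 ± 0.22), and its call ended without mesenchymal library 2 (log2 fold -0.633, adjusted p = 0.0798). Gli3, a transcription factor of the hedgehog pathway, had 68.8 and 73.4 CPM in mesenchymal lungs, against 21.8, 18.4, 22.6, 28.6 and 26.6 CPM in controls (log2 fold 1.58 ± 0.14, adjusted p = 4.72e-10). Gli1, a hedgehog target and effector, had 128 and 114 CPM in mesenchymal lungs, against 37.9, 44.7, 37.4, 73.7 and 49.7 CPM in controls (log2 fold 1.31 ± 0.18). Their relative Gli2, named after its values were seen, had 34.8 and 38.4 CPM in mesenchymal lungs, against 18.1, 21.9, 21.5, 29.9 and 26.1 CPM in controls. All 3 Gli genes were higher and Tcf21 lower in each mesenchymal library than in any control. Of all genes tested, 29.7% lay above and 29.9% below every control in this way.

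Markers of alveolar fibroblasts and lipofibroblasts, the lipid-storing cells that support type 2 cells, were mostly lower, in 17 of 20 with 1 higher (median log2 fold -1.002). Inmt, a methyltransferase of lung fibroblasts, had 1.94 and 0.466 CPM in mesenchymal lungs, against 103, 158, 72.6, 20.8 and 62.3 CPM in controls (log2 fold -6.09 ± 0.76, adjusted p = 1.88e-07). Scn7a, a sodium channel gene of fibroblasts, had 353 and 178 CPM in mesenchymal lungs, against 1362, 1453, 1552, 939 and 1101 CPM in controls (log2 fold -2.27 ± 0.37). The lipid droplet coat gene Plin2 fell less, with 109.6 and 95.7 CPM in mesenchymal lungs, against 161, 157, 136, 141 and 176 CPM in controls (log2 fold -0.59 ± 0.10), and the matrix protein gene Npnt had a log2 fold of -1.83 ± 0.14. The higher member, Bmp5, a bone morphogenetic ligand named after its values were seen, had 93.4 and 81.1 CPM in mesenchymal lungs, against 40.9, 45.2, 49.03, 67.1 and 59.4 CPM in controls. Of 13 pericyte genes, 10 were lower and none higher (median -1.06). For this list and the fibroblast list, the share of lower genes over all genes was 26.9%. Pdgfrb, the receptor that recruits pericytes, had 152 and 145 CPM in mesenchymal lungs, against 331, 351, 278, 277 and 250 CPM in controls (log2 fold -1.003 ± 0.16, adjusted p = 4.07e-06). The cation channel gene Trpc6 (-1.97 ± 0.23) and Higd1b (-1.905 ± 0.31) fell further on the log2 scale.

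Some contractile genes went the other way, where 27.4% of all genes were higher and 26.9% lower. Of 16 smooth muscle genes, 8 were higher and 3 lower (median log2 fold 0.54), though the summed level of the list overlapped, with 2597 and 3019 CPM in mesenchymal lungs and 2595 to 2957 CPM in controls. Acta2 (chromosome 19, 34241090 to 34255590), smooth muscle actin, had 558 and 819.6 CPM in mesenchymal lungs, against 269, 362, 249, 335 and 294 CPM in controls (log2 fold 1.19 ± 0.15, adjusted p = 1.96e-07). Cnn1, which regulates contraction, had 26.03 and 41.5 CPM in mesenchymal lungs, against 7.22, 8.43, 11.8, 8.42 and 6.51 CPM in controls (log2 fold 1.98 ± 0.22, adjusted p = 1.07e-08). Actg2, an actin of visceral smooth muscle, rose by 1.61 ± 0.19, and the myosin heavy chain Myh11 by 0.86 ± 0.17 on the log2 scale. Among the 3 lower members was Hhip, a hedgehog inhibitor, with 193 and 151 CPM in mesenchymal lungs, against 325, 311, 361, 387 and 346 CPM in controls (log2 fold -1.01 ± 0.15). These 8 smooth muscle genes were higher in the same libraries in which pericyte and lipofibroblast genes were mostly lower.

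Elastic fibre genes were lower in 12 of 18 cases and higher in 2 (7 lower without mesenchymal library 2, median log2 fold -0.70). Eln (chromosome 5, 134702593 to 134747323), elastin, had 1532 and 1008 CPM in mesenchymal lungs, against 9573, 10522, 6852, 5570.2 and 5873 CPM in controls (log2 fold -2.596 ± 0.43, adjusted p = 7.89e-06). Fbln5, which assembles elastic fibres, had 84.1 and 79.2 CPM in mesenchymal lungs, against 288, 339, 302, 233 and 234 CPM in controls (log2 fold -1.77 ± 0.33). The 2 fibrillin genes diverged: Fbn1 had 336 and 278 CPM in mesenchymal lungs, against 489, 527, 508, 518 and 490.1 CPM in controls (log2 fold -0.72 ± 0.13), and Fbn2, the fetal fibrillin, had 759 and 618 CPM in mesenchymal lungs, against 126, 121, 143, 457 and 279 CPM in controls (log2 fold 1.61 ± 0.32, adjusted p = 9.90e-05). E16.5 control lungs held 2033 to 2708 CPM of Eln and 759 to 932 CPM of Fbn2. Among 24 collagens and matrix proteins, 10 were lower and 2 higher (5 higher without control 2). For this list and the elastic fibre genes, the shares over all genes were 26.9% lower and 27.4% higher. The interstitial collagens Col1a1 (log2 fold -0.09 ± 0.31, adjusted p = 0.817) and Col1a2 (-0.17 ± 0.21, adjusted p = 0.526) were not called. The basement membrane collagens Col4a1, with 1404 and 876 CPM in mesenchymal lungs, against 4151, 4814, 3281, 3335 and 2788 CPM in controls (log2 fold -1.69 ± 0.25), and Col4a2 (-1.84 ± 0.26) fell. Fibronectin, Fn1, had 1191 and 869 CPM in mesenchymal lungs, against 5692, 5756, 4882, 3993 and 3395 CPM in controls (log2 fold -2.203 ± 0.26, adjusted p = 3.76e-08). Col11a1, a fibril-forming collagen of cartilage and embryonic mesenchyme, had 37.5 and 46.5 CPM in mesenchymal lungs, against 3.37, 13.4, 3.497, 5.85 and 4.62 CPM in controls (log2 fold 2.796 ± 0.29), and control 2 was the highest control.

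Blood vessel genes were lower almost throughout, where 26.9% of all genes were lower and 27.4% higher. Of 20 endothelial genes, 19 were lower and none higher (median log2 fold -1.03), with summed levels of 2766 and 2391 CPM in mesenchymal lungs, against 4781 to 6879 CPM in controls. Pecam1 (chromosome 11, 106654217 to 106750628), an adhesion molecule of all endothelium, had 345 and 314 CPM in mesenchymal lungs, against 756, 851, 703, 596 and 689.9 CPM in controls (log2 fold -1.12 ± 0.13, adjusted p = 5.40e-08). The junction gene Cldn5 had 86.7 and 87.2 CPM in mesenchymal lungs, against 417, 469, 291, 253 and 268 CPM in controls (log2 fold -1.96 ± 0.24). Sox17, an arterial transcription factor, had a log2 fold of -2.01 ± 0.29 and the junctional cadherin Cdh5 of -1.45 ± 0.23. Tek, an angiopoietin receptor named after its values were seen, was the uncalled member, with 88.3 and 84.6 CPM in mesenchymal lungs and 99.98, 120.4, 110.1, 86.5 and 112 CPM in controls. Of 8 genes of aerocytes, the capillary cells specialised for gas exchange, 7 were lower. Car4, a carbonic anhydrase of these cells, had 0.8203 and 1.01 CPM in mesenchymal lungs, against 54.4, 62.9, 27.1, 8.42 and 25.4 CPM in controls (log2 fold -5.26 ± 0.74, adjusted p = 8.42e-07), and E16.5 controls held 0.486 to 1.802 CPM. Of 7 lymphatic genes, 5 were lower and 1 higher (3 and 0 without mesenchymal library 2, 0 higher without control 2 or without controls 1 and 2). Lyve1, a hyaluronan receptor of lymphatics and macrophages, had 121 and 107 CPM in mesenchymal lungs, against 250.4, 305, 222, 198 and 218 CPM in controls (log2 fold -1.07 ± 0.20).

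Among 14 hypoxia and vascular growth factor genes, 9 were lower and 3 higher (6 and 1 without mesenchymal library 2, 6 lower without controls 1 and 2). Vegfa (chromosome 17, 46016993 to 46032369), the growth factor of endothelium made by alveolar epithelium, had 246 and 204 CPM in mesenchymal lungs, against 1160, 1517, 1187, 935 and 879 CPM in controls (log2 fold -2.33 ± 0.18, adjusted p = 5.12e-11). The vasoactive peptide gene Adm (-3.09 ± 0.68) and Pdgfb (-1.81 ± 0.28), the ligand of Pdgfrb, fell too. Over all genes, 26.9% were lower and 27.4% higher, and a link between Vegfa and the endothelial genes was not tested.

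Blood cell genes were lower or mixed, where 26.9% of all genes were lower and 27.4% higher. Of 20 leukocyte genes, 15 were lower and none higher (10 lower without mesenchymal library 2, median log2 fold -1.15). Lyz2, a lysozyme of macrophages and type 2 cells, had 67.6 and 47.5 CPM in mesenchymal lungs, against 635, 733, 609, 315 and 424 CPM in controls (log2 fold -3.24 ± 0.37). The pan-leukocyte gene Ptprc had 4.03 and 3.81 CPM in mesenchymal lungs, against 12.2, 19.6, 16.4, 8.11 and 11.5 CPM in controls (log2 fold -1.78 ± 0.48). Of 14 erythroid genes, 3 were higher and 3 lower (1 higher without mesenchymal library 2). The adult globin gene Hba-a1, which can share reads with its copy Hba-a2, had 279.7 and 534 CPM in mesenchymal lungs, against 2792, 4116, 1249, 1206 and 1661 CPM in controls (log2 fold -2.44 ± 0.58), while the red cell membrane gene Epb42 had 6.56 and 8.62 CPM, against 3.05, 1.81, 0.318, 1.56 and 1.59 CPM in controls (log2 fold 2.27 ± 0.54).

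RNA of neighbouring tissue was measured with 6 further lists, where 27.4% of all genes were higher and 26.9% lower. Cardiomyocyte genes were lower in 3 of 16 (1 without mesenchymal library 2) and summed to 176 and 184 CPM in mesenchymal lungs and 319.6 to 1243 CPM in controls. Hepatocyte genes were lower in 2 of 10 (7 higher and 1 lower without controls 1 and 2, 1 lower without mesenchymal library 2) and summed to 103 and 10.02 CPM in mesenchymal lungs and 35.7 to 1176 CPM in controls, highest in control 1. Skeletal muscle genes were lower in 1 of 9, a call lost without mesenchymal library 1, mesenchymal library 2, control 2 or controls 1 and 2. None of 6 thymus genes was called. Nerve genes were higher in 1 of 9 and lower in 2 (2 and 1 without mesenchymal library 1, 0 and 1 without mesenchymal library 2, 1 lower without controls 1 and 2). Genes of oesophagus, trachea and cartilage were higher in 1 of 10 and lower in 1 (0 lower without mesenchymal library 1 or 2, 2 higher without control 2, 2 higher and 0 lower without controls 1 and 2) and summed to 54.96 and 86.9 CPM in mesenchymal lungs and 27.1 to 107 CPM in controls. None of 5 sex-linked genes was called, but 2 were higher without control 2. Although few cardiomyocyte genes were called, 12 of 16 lay below every control in both mesenchymal libraries, against 29.9% of all genes. The median log2 fold of that list was -1.82. The part of neighbouring tissue in the other results was not tested.

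**Figure D5:**
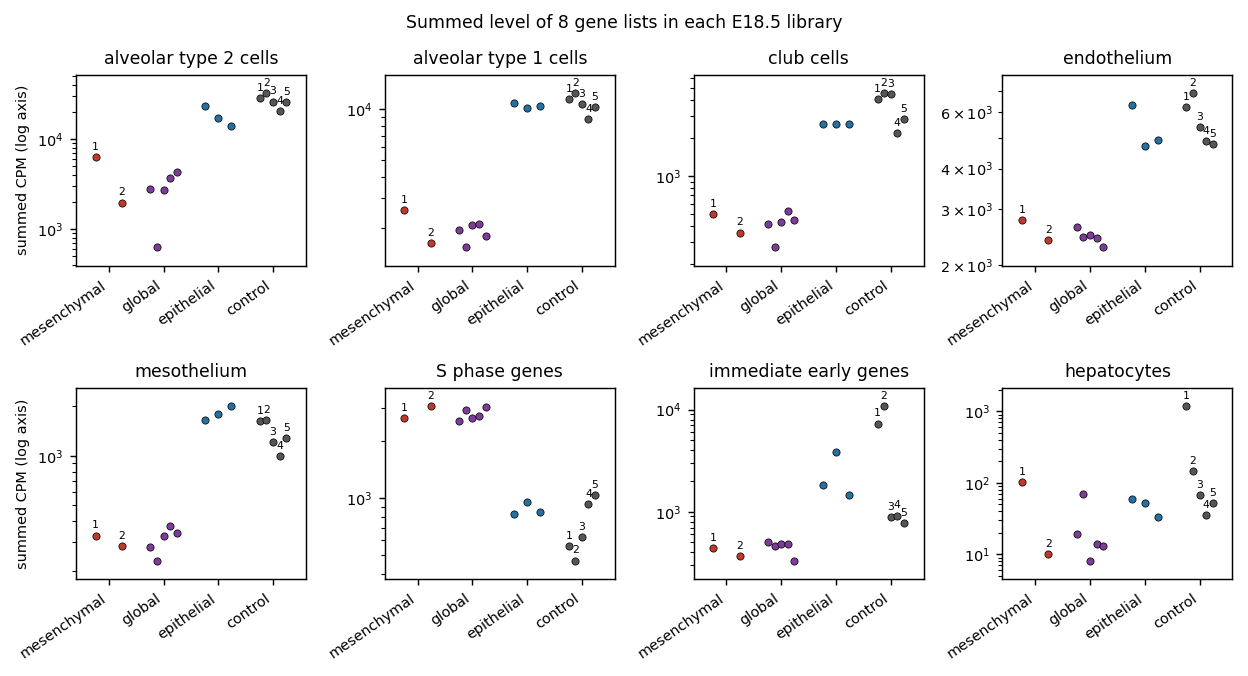
Summed level of 8 gene lists in each E18.5 library, in CPM on a log axis, for mesenchymal, global, epithelial and control lungs, with replicate numbers beside mesenchymal and control libraries. Mesenchymal library 1 holds more alveolar type 2 RNA than library 2, control libraries 1 and 2 stand above the other controls in immediate early genes, and control library 1 in hepatocyte genes.

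Genes of the insulin-like growth factor axis moved both ways, as did all genes tested, with 27.4% higher and 26.9% lower. Of 17 on the list, 6 were higher and 7 lower (median log2 fold -0.29). Their sums overlapped, with 2798 and 2683 CPM in mesenchymal lungs and 2686 to 3287 CPM in controls. The ligand Igf2, from an imprinted locus, had 147 and 125 CPM in mesenchymal lungs, against 31.6, 35.8, 34.3, 72.7 and 42.5 CPM in controls (log2 fold 1.64 ± 0.28, adjusted p = 1.60e-05), and the ligand Igf1 had 123 and 155 CPM, against 40.4, 45.1, 50.5, 84.9 and 75.2 CPM in controls (log2 fold 1.22 ± 0.21). Binding proteins moved in opposite directions, with Igfbp2 higher as given above and Igfbp6 at 6.19 and 2.95 CPM in mesenchymal lungs, against 188, 226, 160.1, 114 and 153 CPM in controls (log2 fold -5.19 ± 0.41, adjusted p = 6.32e-11). Of 15 imprinted growth genes, 8 were higher and 4 lower (median log2 fold 0.66). H19, a noncoding RNA beside Igf2, had 7024 and 6575 CPM in mesenchymal lungs, against 1793, 1654, 1531, 2849 and 2424 CPM in controls (log2 fold 1.73 ± 0.20, adjusted p = 3.12e-08). Peg10, an imprinted gene of retrotransposon origin, rose by 1.68 ± 0.21, and Meg3, a maternally expressed noncoding RNA, had 753 and 725 CPM in mesenchymal lungs, against 3195, 3647, 2017, 1359 and 1550.4 CPM in controls (log2 fold -1.67 ± 0.29).

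Developmental signals were mixed, as were all genes tested, with 27.4% higher and 26.9% lower. Of 18 Wnt targets and regulators, 4 were higher and 6 lower (2 and 4 without mesenchymal library 2). The feedback inhibitor Nkd1 had 83.97 and 56.6 CPM in mesenchymal lungs, against 376, 382, 285, 272 and 213 CPM in controls (log2 fold -2.12 ± 0.19, adjusted p = 4.25e-10), and the feedback inhibitors Notum (-1.697 ± 0.22) and Axin2 (-0.63 ± 0.17) fell as well. These genes are all from the 6 lower members. Log2 folds over the whole list ran from -2.12 to 2.54, with a median of 0.01. That range is from the main fit. Dkk1 is given only from the fit without controls 1 and 2, chosen after the data were seen, with a log2 fold of 2.94 ± 1.04. Of 20 Fgf, Bmp and Tgf-beta signals, 5 were higher and 9 lower (3 lower without mesenchymal library 2). Bmp7, a bone morphogenetic ligand, had 10.8 and 16.1 CPM in mesenchymal lungs, against 5.62, 3.13, 3.099, 6.55 and 4.01 CPM in controls (log2 fold 1.59 ± 0.25), and Tgfb1 had 35.4 and 35.7 CPM, against 117, 116, 68.3, 95.1 and 58.5 CPM in controls (log2 fold -1.35 ± 0.33). Of 23 Hox genes, which hold positional identity, 5 were higher and 4 lower (1 and 0 without mesenchymal library 2, 2 lower without mesenchymal library 1, without control 2 or without controls 1 and 2). Hoxb6 rose by 1.07 ± 0.22 on the log2 scale, while Hoxc5 had 0 counts in both mesenchymal libraries and is given without a fold. The median log2 fold of the Hox list was 0.02.

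Genes listed as responsive to glucocorticoid hormone, which matures the lung before birth, were lower in 13 of 14 cases (median log2 fold -2.06), against 26.9% of all genes. The list is not limited to induced targets, as it includes Nr3c1 and Hsd11b1. It shares Per1 with the clock list and Cdkn1a with the p53 list. Zbtb16, a zinc-finger target, had 8.65 and 3.89 CPM in mesenchymal lungs, against 87.1, 96.1, 93.1, 57.7 and 66.4 CPM in controls (log2 fold -3.67 ± 0.48, adjusted p = 2.75e-07). Tsc22d3, another direct target, had 64.4 and 53.4 CPM in mesenchymal lungs, against 237, 227, 203, 141 and 163 CPM in controls (log2 fold -1.72 ± 0.18, adjusted p = 3.52e-09). Fkbp5, a co-chaperone of the receptor, fell with a log2 fold of -1.104 ± 0.26. In E16.5 control lungs Zbtb16 was at 17.4 to 24.6 CPM and Tsc22d3 at 80.5 to 96.3 CPM. Of 16 circadian clock genes, 13 were lower and none higher (median -1.15), among them Per1 (-1.83 ± 0.26), Nr1d1 (-2.13 ± 0.42) and Arntl (-0.82 ± 0.18). The hour of collection is not given in the labels. Of 16 immediate early genes, 14 were lower, but 9 without controls 1 and 2. Fosb, for example, had 0.671 and 0.622 CPM in mesenchymal lungs, against 209, 318, 0.556, 1.87 and 0.5298 CPM in controls, and its log2 fold of -7.32 ± 2.05 became -0.616 without controls 1 and 2 (adjusted p = 0.694). Atf3 likewise had a log2 fold of -4.93 ± 1.38, which became -0.301 (adjusted p = 0.713). Among 12 p53 target genes, 7 were lower and 2 higher (1 higher without mesenchymal library 2). The cell cycle inhibitor Cdkn1a had 13.1 and 9.79 CPM in mesenchymal lungs, against 67.7, 114, 50.1, 24.8 and 50.1 CPM in controls (log2 fold -2.41 ± 0.36, adjusted p = 1.96e-06).

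Metabolic and protein synthesis genes were higher more often than lower. Of 27 sterol and fatty acid synthesis genes, 18 were higher and 5 lower (3 lower without mesenchymal library 2, median log2 fold 0.73). Their summed level went the other way, with 4431 and 3964 CPM in mesenchymal lungs, against 5466 to 7420 CPM in controls. Sqle, a rate-limiting sterol enzyme, had 129 and 129 CPM in mesenchymal lungs, against 38.7, 30.6, 43.6, 46.3 and 41.9 CPM in controls (log2 fold 1.68 ± 0.12, adjusted p = 8.68e-12). The lower members included Scd1, given above, and the fatty acid synthase Fasn, named after its values were seen, with 530.3 and 345 CPM in mesenchymal lungs, against 1272, 1312, 1098, 979 and 932 CPM in controls. Of 16 glycolysis genes, 9 were higher and 2 lower (6 and 1 without mesenchymal library 2). Pkm, pyruvate kinase, had 903 and 1366 CPM in mesenchymal lungs, against 498, 540.1, 425, 481 and 543 CPM in controls (log2 fold 1.19 ± 0.11, adjusted p = 1.01e-09). Cytosolic ribosomal protein genes were higher in 53 of 77 cases and lower in none (25 higher without mesenchymal library 2, median 0.45), and genes with many pseudogene copies are uncertain in such counts. Nuclear oxidative phosphorylation genes were higher in 34 of 81 and lower in 4 (23 higher without controls 1 and 2), where 27.4% of all genes were higher. Their summed level was 9473 and 10060 CPM in mesenchymal libraries 1 and 2, against 7356 to 8900 CPM in controls. Ribosomal and oxidative phosphorylation counts of higher genes shrank more without mesenchymal library 2 than without library 1. Without library 2, the share of higher oxidative phosphorylation genes was below the share over all genes, so their excess depended on that library. Fewer genes were also called in all without library 2. Lower oxidative phosphorylation genes were fewer without either mesenchymal library.

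Among protein-coding genes at 5 CPM or more in the higher group, with both mesenchymal libraries beyond all controls, the largest rises after Lin28a were in genes nearly silent in control lungs. Kif12 (chromosome 4, 63165630 to 63172131), a kinesin, had 22.7 and 40.4 CPM in mesenchymal lungs, against 0.1605, 0.241, 0.0795, 0.312 and 0.5298 CPM in controls (log2 fold 6.76 ± 0.34, adjusted p = 3.77e-14). B4galnt4, a glycosyltransferase, had 36.8 and 48.3 CPM in mesenchymal lungs, against 1.605, 0.361, 1.11, 1.95 and 1.44 CPM in controls (log2 fold 4.99 ± 0.32). Crabp2, a carrier of retinoic acid, had 10.1 and 13.1 CPM in mesenchymal lungs, against 0.802, 0.241, 0.556, 0.312 and 0.5298 CPM in controls (log2 fold 4.59 ± 0.39). Dusp9, a MAP kinase phosphatase, had 47.2 and 48.7 CPM in mesenchymal lungs, against 1.77, 1.81, 1.91, 4.29 and 2.12 CPM in controls (log2 fold 4.28 ± 0.32). Several others are adhesion or membrane genes best known from nerve cells: Ntm (4.41 ± 0.34), Cntn4 (4.17 ± 0.46), Epha8 (3.95 ± 0.47), Ctnna2 (3.86 ± 0.42), Nkain1 (3.82 ± 0.29) and Pcdh10 (3.796 ± 0.33). The septin gene Sept3 (4.38 ± 0.30), the channel Kcnk16 (4.56 ± 0.42), Camkv (3.94 ± 0.33) and Fam169a (3.71 ± 0.37) complete the 15 largest rises. E16.5 controls held 2.62 to 3.804 CPM of Kif12, 3.604 to 7.204 CPM of B4galnt4 and 0.4505 to 0.787 CPM of Crabp2.

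The largest falls by the same rule included several genes already described. Besides Aqp5, Scgb3a1, Scgb1a1 and Inmt, they included the complement gene C6, with 0.373 and 0.155 CPM in mesenchymal lungs, against 44.1, 51.4, 25.4, 16.1 and 17.03 CPM in controls (log2 fold -6.79 ± 0.74, adjusted p = 6.09e-08). The lysozyme gene Lyz1, whose reads can be shared with its close relative Lyz2, had 15.4 and 1.63 CPM in mesenchymal lungs, against 1224, 1228, 718, 456 and 385 CPM in controls (log2 fold -6.54 ± 0.81, adjusted p = 1.44e-07). Gdpd2 (-6.25 ± 0.83), the paraoxonase Pon1 (-6.203 ± 0.65), the Wnt ligand Wnt3a (-6.11 ± 0.66), Rnf39 (-6.03 ± 0.52), the protease inhibitor Spink5 (-5.74 ± 0.92), the transporter Slc13a4 (-5.71 ± 0.74) and the gap junction gene Gjb6 (-5.68 ± 0.59) fell too. Fos was among them with a log2 fold of -7.12 ± 1.47, which became -2.442 without controls 1 and 2 (adjusted p = 8.38e-06). Pnoc had 3 counts in the 2 mesenchymal libraries together and is given without a fold.

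Ranked by the difference in CPM, which is not corrected for transcript length, rather than by fold, the largest gains in mean level were in H19 (6799.5 ± 317 CPM in mesenchymal lungs and 2050.2 ± 564 CPM in controls, SD, n = 2 and n = 5), the chaperone Hsp90ab1 (3282 ± 449.7 and 1832 ± 193 CPM in the same order), the tubulin Tubb5 (2315 ± 356 and 739 ± 173), the mitochondrial mt-Nd1 (3137 ± 23.3 and 1886 ± 234), the imprinted growth inhibitor Grb10 (1736 ± 209 and 689 ± 133) and the RNA-binding Hnrnpa2b1 (1814 ± 152 and 949 ± 195). The largest losses were in Sftpc, CT010467.1, Lars2, Eln, Fn1 and Col4a1. Of these, Lars2 had 274 and 230.2 CPM in mesenchymal lungs, against 11028, 3737, 198, 319 and 1247 CPM in controls. Its log2 fold of -3.71 ± 1.26 and that of CT010467.1 (-3.96 ± 1.42) rested on controls 1 and 2, without which they were -1.24 (adjusted p = 0.279) and -1.618 (adjusted p = 0.244).

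By the test, 4 genes separated mesenchymal from global lungs. Acp1 (ENSMUSG00000044573, chromosome 12, 30893326 to 30911589), a low molecular weight phosphatase, had 24.8 and 28.1 CPM in mesenchymal lungs, against 7.44 to 9.23 CPM in global lungs (log2 fold 1.62 ± 0.14, adjusted p = 7.83e-08). It had 16.96 to 18.1 CPM in epithelial lungs and 3.53 to 6.39 CPM in controls, so every transgenic group lay above the controls and the mesenchymal libraries highest. Nod2 (chromosome 8, 88647315 to 88688474), a sensor of bacterial cell wall fragments, had 5.67 and 7.85 CPM in mesenchymal lungs, against 0.733 to 1.602 CPM in global lungs (log2 fold 2.47 ± 0.37, adjusted p = 0.00173). That call ended in a fit of the 15 E18.5 libraries alone (adjusted p = 0.0907) and without mesenchymal library 2. Ppp1r14b (chromosome 19, 6974968 to 6977324), an inhibitor of protein phosphatase 1, had 51.01 and 54.7 CPM in mesenchymal lungs, against 74.4 to 110.4 CPM in global lungs (log2 fold -0.79 ± 0.15, adjusted p = 0.0443), and lost its call in several settings. The processed pseudogene Gm48455 (chromosome 13, 12679940 to 12680359) had 2 counts in mesenchymal lungs and 147 in global lungs and is given without a fold. No member of any list was called in this comparison.

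For the main members the difference from global lungs was bounded as follows. The 95% confidence interval of the log2 fold, mesenchymal minus global, was -0.93 to 0.64 for Lin28a, -0.84 to -0.10 for Hmga2 and -0.83 to -0.10 for Igf2bp1. It was -0.41 to 0.45 for Mki67, -0.38 to 0.53 for Cdc6, -0.26 to 0.39 for Acta2 and -0.09 to 0.42 for Pecam1. For Sftpc it ran from -0.75 to 2.09, for Aqp5 from -1.61 to 3.01 and for Wt1 from -1.04 to 0.29. The intervals of Hmga2 and Igf2bp1 lay below 0, but after adjustment over all genes neither passed (adjusted p = 1 and 1). The intervals of Mki67, Cdc6, Acta2 and Pecam1 were narrow, and those of Sftpc and Aqp5 wide.

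Against epithelial lungs the differences were tested directly in the same fit. All 20 S phase genes were higher in mesenchymal lungs (summed 2655 and 3058 CPM, against 829.8 to 956 CPM in epithelial lungs). Alveolar type 1 genes were lower in 14 of 16 cases and higher in 1 (2543 and 1633 CPM in mesenchymal and 10230 to 10850 CPM in epithelial lungs), and club cell genes lower in 10 of 12 and higher in 1 (496 and 354 CPM in mesenchymal and 2570 to 2575 CPM in epithelial lungs). Hmga2 was higher in mesenchymal lungs, with 117 and 188 CPM against 22.3 to 30.4 CPM in epithelial lungs (log2 fold 2.49 ± 0.20, adjusted p = 8.16e-11). Cdc6 was higher as well, with 55.04 and 67.6 CPM in mesenchymal and 9.55 to 11.6 CPM in epithelial lungs (log2 fold 2.56 ± 0.26, adjusted p = 4.05e-09). Aqp5, the type 1 water channel, had 0.8203 and 0.155 CPM in mesenchymal lungs, against 174 to 436 CPM in epithelial lungs (log2 fold -9.204 ± 0.68, adjusted p = 2.56e-11). Pecam1 (-1.12 ± 0.14, adjusted p = 2.07e-07) and Eln (-2.38 ± 0.44, adjusted p = 3.99e-05) were lower and Acta2 (1.12 ± 0.17, adjusted p = 3.57e-06) higher in mesenchymal lungs. Lin28a was lower in level in mesenchymal lungs (412 and 550.4 CPM) than in epithelial lungs (625 to 1301 CPM), without passing the threshold (log2 fold -0.98 ± 0.43, adjusted p = 0.0541). Of 20 alveolar type 2 genes, 17 were lower and 1 higher in mesenchymal lungs (6260 and 1957 CPM in mesenchymal and 13820 to 23240 CPM in epithelial lungs), and Sftpc did not pass (-1.81 ± 0.83, adjusted p = 0.0689).

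By the naming rule, the largest rises against epithelial lungs included Kif12, Epha8, Kcnk16, B3galt5, Slitrk6 and Gm10320, and the largest falls Aqp5, Scgb3a1, Nr4a3 and Mucl3. Mucl3, a mucin-like gene, had 5.29 and 3.03 CPM in mesenchymal lungs, against 172 to 801 CPM in epithelial lungs and 1.77 to 5.61 CPM in controls, so the difference lay in the epithelial group. B3galt5, a galactosyltransferase, had 9.17 and 10.3 CPM in mesenchymal lungs, against 0.536 to 0.643 CPM in epithelial lungs and 0.602 to 3.197 CPM in controls. Serpina3n and Krtap17-1 had 1 and 0 counts in mesenchymal lungs, against 457 and 228 in epithelial lungs, and are given without folds.

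The 2 mesenchymal libraries differed from each other in epithelial and sex-linked genes. Alveolar type 2 genes summed to 6260 CPM in library 1 and 1957 CPM in library 2, type 1 genes to 2543 and 1633 CPM and club cell genes to 496 and 354 CPM in libraries 1 and 2. S phase genes summed to 2655 and 3058 CPM in the same order, against 2554 to 3047 CPM in global libraries. Library 1 thus held more RNA of mature epithelium than library 2, and the spread of the group rests on these 2 values. Among genes at 20 CPM or more, those with the largest differences between the libraries included Xist (2345 and 3.19 CPM) and the Y-linked Ddx3y, Eif2s3y and Kdm5d, along with the liver genes Alb (42.8 and 1.24 CPM) and Afp (25.7 and 1.79 CPM) and Gm13394 (0 and 96.7 CPM).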

How the data were processed

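The authors deposited 1 table of raw counts per gene (21789 genes) for 34 whole-lung libraries. Per the submitters' processing notes, STAR 2.4.2a, HTSeq 0.6.1p1, DESeq2 1.10.1, cutadapt, bcl2fastq 2.17.1.14 and GRCm38 were used, and strand use in counting is not given in the sources used here. Reads of overlapping genes, antisense partners and near-identical copies may therefore be mixed. Count columns were matched to samples by stage and number, since the table heads the second mesenchymal library Wt2 where its title says Wt1. Of the gene IDs, 21762 were found in GENCODE M21 (GRCm38), which gave symbols and coordinates.

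Counts were tested with edgeR 4.0.16 (R 4.3.3): filterByExpr at a minimum count of 10 left 18319 genes, and 1 quasi-likelihood fit of 10 group means over all 34 libraries with TMM scaling gave 24 residual degrees of freedom. Contrasts were mesenchymal minus control, global or epithelial lungs at E18.5, with Benjamini-Hochberg adjustment over all genes of a contrast and a threshold of 0.05. A single count was worth 0.0746 and 0.0777 CPM in mesenchymal libraries 1 and 2. Simulated counts with known changes were used to check the fit. Alternatives were DESeq2 1.42.0, its size factors, no filter, smaller fits, a replicate block, a threshold of 0.01 and each replicate left out, plus control libraries 1 and 2 left out, which was added later.

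The members and lists were chosen with earlier results of these data known. The rule for named genes took Lin28a, Lin28b, Wt1 and Nkx2-1; the 15 largest rises and 15 largest falls among called protein-coding genes at 5 CPM or more whose mesenchymal values lay beyond all controls; the 6 largest gains and losses in CPM; the first 2 measured members of each list and its 4 called members with the largest folds; 6 each way in each direct comparison; and 6 each way between the 2 mesenchymal libraries at 20 CPM or more. Others are said to be named after their values were seen. Sequences are from RefSeq and the genome of the same build, and let-7 sites were searched in the 3′ UTRs of GENCODE M21.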

Additional observations from a re-analysis of the deposited data

Results flagged for a closer look

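In 16 of 227 genes, those named in the text and further genes taken by the naming rule, 1 control library lay far from the other 4, where chance alone would set about 1 in 20 groups apart. Control library 4 was highest for Igf2 (72.68 CPM, with the other controls at 31.6 to 42.5), Nkx2-1 (897.6 CPM, others 626 to 667) and Dusp9 (4.289 CPM, others 1.77 to 2.12). Control library 2 was highest for Col11a1 (13.37 CPM, others 3.37 to 5.85) and lowest for Cntn4 (0.241 CPM, others 0.757 to 0.874). Control library 5 was highest for the ribosomal genes Rps27a (14.46 CPM, others 9.46 to 10.4) and Rps29 (3.86 CPM, others 1.67 to 2.26), and control library 3 was lowest for Uchl1 (5.166 CPM, others 7.83 to 8.63). Control library 1 was highest for the liver genes Alb (588 CPM, others 0.715 to 12.7) and Afp (119.7 CPM, others 0 to 4.94). Control library 3 was highest for the atrial gene Nppa (106.7 CPM, others 0 to 0.234) and for Sall4 (0.2384 CPM, others 0). Control library 2 was lowest for Xist (2.289 CPM, others 1292 to 1659) and highest for the Y-linked Ddx3y (75.78 CPM), Eif2s3y (75.54 CPM) and Kdm5d (61.2 CPM), with the others at 0.078 CPM or less. The mesenchymal values of Igf2, Dusp9, Col11a1, Cntn4 and Uchl1 lay above all 5 controls all the same, as in 29.7% of all genes tested.

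Tests of the difference between transgenic groups set apart 4 genes between mesenchymal and global lungs and 9771 between mesenchymal and epithelial lungs. The log2 folds of mesenchymal minus global lungs were 1.617 for Acp1, 2.472 for Nod2 and -0.788 for Ppp1r14b. Among the genes named for the largest differences, the log2 folds of mesenchymal minus epithelial lungs were 4.457 for Epha8, 4.415 for Kif12, 4.34 for Gm10320, 4.16 for Kcnk16, 4.002 for B3galt5 and 3.983 for Slitrk6. They were -9.204 for Aqp5, -7.734 for Scgb3a1, -7.574 for Nr4a3 and -7.026 for Mucl3.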

How the results depend on the processing

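Counts of genes that differed between mesenchymal and control lungs were 8685 to 9940 in 6 alternatives (DESeq2, its size factors, no filter, both smaller fits and the replicate block), 8653 without control libraries 1 and 2 and 7777 at an adjusted p under 0.01. Leaving out single replicates gave 6588 to 10085 genes, of which 3083 to 5004 were lower, with the fewest without mesenchymal library 2. Between mesenchymal and global lungs the 4 calls became 11 with DESeq2 (4 higher and 7 lower), 2 in the fit of the 15 E18.5 libraries (1 and 1), 9 in the fit of these 2 groups (4 and 5), and 1 lower gene with DESeq2 size factors or at an adjusted p under 0.01. Leaving out single replicates gave 2 to 5 genes there, 0 to 2 of them lower. Causes were not tested. Replicate numbers did not show a pairing (correlations of deviations of libraries 1 and 2 with mesenchymal ones were 0.148 and 0.011 for control, 0.04 and 0.291 for global and -0.026 and -0.071 for epithelial libraries), and with the replicate block the counts were 9918 against control, 5 against global and 9530 against epithelial lungs. Of 200 genes taken by the naming rule or given with a test, 199 kept direction and call with DESeq2, its size factors, no filter and the replicate block, 197 and 196 in the smaller fits, 193 without mesenchymal library 1 and likewise without library 2, and 192 without controls 1 and 2. Many of these 200 genes were named for large folds among called genes, so these shares do not stand for all calls. Of all 9952 calls, 9402 were kept with DESeq2, 9051 with the replicate block and 8431 without controls 1 and 2. Col1a1, uncalled, had log2 folds of -0.246 to 0.042 with single replicates left out, positive without mesenchymal library 1, and 0.037 without controls 1 and 2. With 2 mesenchymal libraries, a fit without either assumes that the lone library varies like other groups, and genes under about 1 CPM rest on few counts.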
